A study of Homo sapiens with 12 samples.

Results

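Dauricine (DAC in the labels) was compared directly with osimertinib (OSI) in PC9-OR cells, labelled as non-small cell lung cancer, in a series concerned with resistance to osimertinib. PC9 is an established lung adenocarcinoma line with an activating deletion in the EGFR gene. The comparison took the 3 libraries labelled DAC and the 3 labelled OSI, which is 6 of the 12 libraries of the series, and was chosen by treatment label alone, with no measured value. All 6 come from the same line under a single compound each, and no untreated library enters the test. The series also holds 3 untreated Control libraries and 3 of cells given both compounds (DAC+OSI), which appear below as levels for reference only. Doses, exposure times, the vehicle and the way resistance was raised (a pool or a single clone) are not given in the labels. Since separate cultures are not stated either, the spread behind each p-value is that of the libraries sequenced, and part or all of it may be technical.

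Osimertinib binds covalently to mutant EGFR, the receptor tyrosine kinase on which PC9 cells depend, and shuts off its signal through RAS, RAF, MEK and ERK. ERK output can be read from the messages of its own feedback inhibitors, the DUSP phosphatases and the Sprouty proteins, and from EGFR ligands. Dauricine is a bisbenzylisoquinoline alkaloid from a Menispermum plant. In most cells the enzymes of cholesterol synthesis are under shared control by SREBP2, which the protein SCAP carries from the endoplasmic reticulum to the Golgi for cleavage when sterols in the membrane run low. Genes of the G1/S transition and of DNA replication are under shared control by E2F factors, and those of mitosis by a complex of MYBL2 and FOXM1. The series was built around ferroptosis, a death by lipid peroxidation that needs iron and polyunsaturated lipids, and around SAT1, the enzyme that acetylates polyamines for breakdown.

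The OSI libraries held 41.1, 46.4 and 47.6 M counts and the DAC libraries 53.3, 57.0 and 49.2 M counts. A count of 0 in a library allows a level of up to 0.0527 to 0.073 CPM, the count scaled to the size of its library, which covers counting error only. Two-sided tests by edgeR's quasi-likelihood method covered 19583 genes, and a gene was called at a Benjamini-Hochberg adjusted p under 0.05. DAC was higher than OSI for 4942 genes (25.2% of those tested) and lower for 4945 (25.3%), so that 9887 (50.5%) were called. With a change of at least 2-fold as well, 1262 genes (6.44%) were higher in DAC and 1334 (6.81%) were lower. The biological coefficient of variation between libraries of a group was 9.02%. For 57.9% of the genes tested, every library of one group lay above every library of the other. The root mean square log2 distance between 2 libraries was 0.455 to 0.513 within OSI, 0.395 to 0.402 within DAC and 0.794 to 0.849 between the groups. These shares are the background against which each list of genes below is to be read. Called genes made up 24.8% of the genes under 1 CPM and 66.9% of those over 100 CPM, so the share called rose with the level of the gene.

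**Figure D1:**
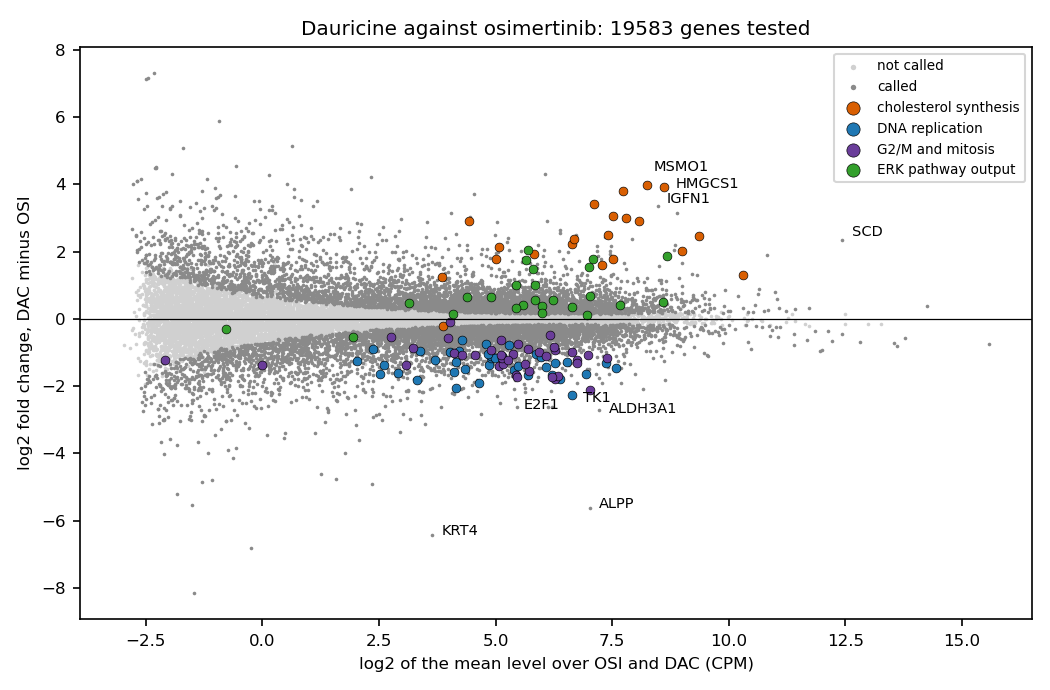
Log2 fold change (DAC minus OSI, vertical axis) of each of the 19583 genes tested against the log2 of its mean level in CPM over both groups (horizontal axis), with called genes in dark grey and members of 4 lists in colour. Cholesterol enzymes lie high on the right, with HMGCS1 at 3.93, replication and mitosis genes lie below 0, and KRT4 lies lowest among the labelled genes at -6.43.

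The libraries carried the messages of an epithelial cell in both groups. KRT8, a keratin of simple epithelia, stood at 5939.9, 5216 and 5227 CPM in OSI and 5679.6, 5934 and 6538 CPM in DAC, and CDH1, the epithelial cadherin, at 212, 235 and 250.1 CPM in OSI and 278, 254 and 273 CPM in DAC. Of 10 tested lung adenocarcinoma markers 5 were higher in DAC and 1 lower, with a median log2 fold change of 0.21, and the number higher was 3 without OSI 2 or without DAC 3 and 2 in a fit of all 12 libraries, which share one estimate of the spread. The alveolar markers NKX2-1, SFTPB, SFTPC and SFTA2 did not pass the filter on low counts, and NAPSA and FOXA2 averaged 1.15 and 0.363 CPM in OSI. Markers of leukocytes were low but moved with the groups. Their summed level over 9 tested members ran from 13.7 to 15.57 CPM in OSI and from 31.62 to 39.01 CPM in DAC, and 7 of the 9 were higher in DAC and 1 lower, with a median log2 fold change of 1.57. PTPRC, which encodes CD45, stood at 1.98, 2.49 and 2.55 CPM in OSI and 7.20, 7.21 and 6.48 CPM in DAC, and LYZ, which encodes lysozyme, at 3.61, 3.49 and 2.82 CPM in OSI and 11.5, 16.3 and 11.1 CPM in DAC. The constant segments of immunoglobulin genes summed to 6.77, 2.51 and 4.53 CPM in OSI and 30.3, 10.5 and 23.9 CPM in DAC. In Control the leukocyte markers summed to 28.57, 19.6 and 21.64 CPM. The source of these messages, and their part in the results that follow, was not tested. Fibroblast markers (1 higher and 1 lower of 4 tested) and endothelial markers (2 higher and 1 lower of 3) were also low, with summed means of 9.127 and 12.29 CPM in OSI and 11.49 and 9.294 CPM in DAC.

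Of all the lists, cholesterol synthesis had the median fold change farthest from 0. Of 21 enzymes on the route from acetoacetyl-CoA to cholesterol, all of which were tested, 20 were higher in DAC and 0 lower, with a median log2 fold change of 2.38. HMGCS1, which makes HMG-CoA, stood at 47.6, 48.9 and 47.2 CPM in OSI and 720.4, 680 and 789 CPM in DAC. The lowest DAC library was above the highest OSI library by a wide margin, and the log2 fold change was 3.93 ± 0.080 (SE), adjusted p = 1.53e-14. SQLE, the epoxidase that opens the sterol branch, stood at 29.5, 27.6 and 27.8 CPM in OSI and 378, 369 and 435 CPM in DAC, 13.9-fold apart (adjusted p = 2.27e-14). MSMO1, which removes methyl groups from the sterol ring, showed the largest difference of the list, with 41.1, 32.2 and 34.4 CPM in OSI and 575, 493 and 646 CPM in DAC (log2 fold change 3.99 ± 0.11 (SE), adjusted p = 4.72e-13). The smallest called difference was that of GGPS1, which feeds protein prenylation at a branch of the route (1.24). PMVK, phosphomevalonate kinase, was the member not called, with 18.7, 14.7 and 13.5 CPM in OSI and 13.2, 13.6 and 13.9 CPM in DAC, groups that overlapped and an adjusted p of 0.143. It was called lower when OSI 3 was left out.

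**Figure D2:**
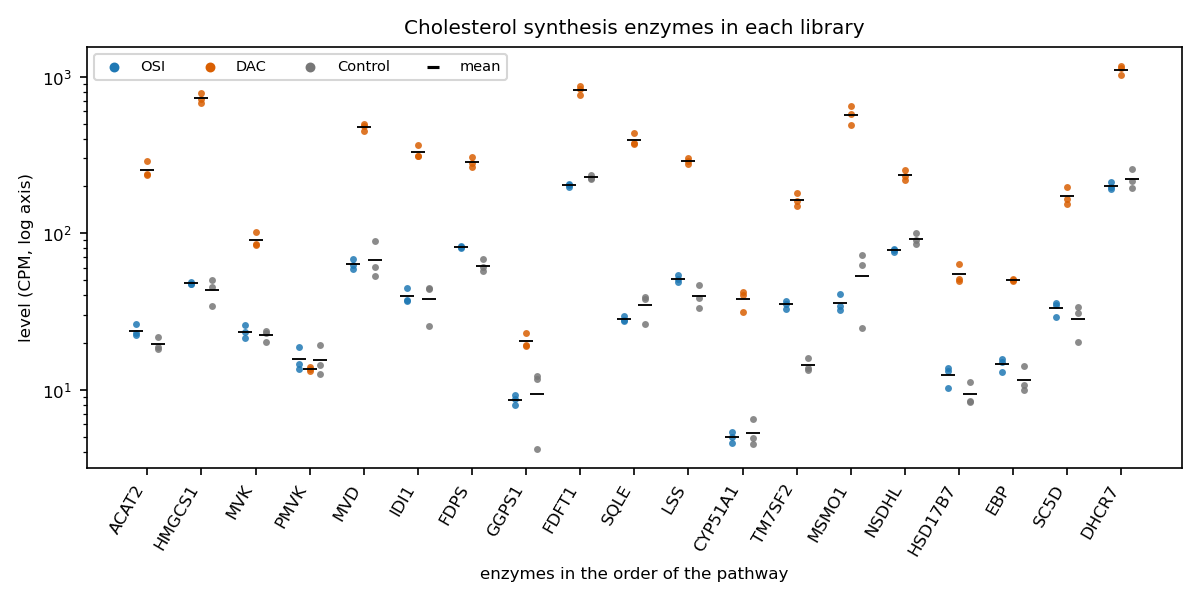
Level in CPM (log axis) of 19 of the 21 cholesterol synthesis enzymes in the OSI, DAC and Control libraries, in the order of the pathway from left to right. Points are libraries and dashes the means of 3. For every enzyme but PMVK the 3 DAC points lie above the 3 OSI points, and the OSI points lie near those of Control for most.

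Control levels stand beside these for reference. HMGCS1 stood at 45.5, 34.2 and 50.3 CPM in the 3 Control libraries and at 857, 523 and 834 CPM in DAC+OSI. Over the list, the median log2 ratio to the Control mean was 0.05 for OSI, 2.61 for DAC and 3.18 for DAC+OSI. These ratios share the Control libraries and were not tested here. Summed over the 21 enzymes the level was 1755, 1729 and 1859 CPM in OSI, 8206, 7681 and 9039 CPM in DAC and 1456, 1556 and 1573 CPM in Control. The number of enzymes called higher in DAC was 20 under every alternative analysis run.

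Sequence around the start of these genes is shown because the members moved together. In a window from 250 bases before to 50 after the start of each gene, in RefSeq's GRCh38.p14 annotation and on either strand, the letters CCAAT, which the factor NF-Y binds, were present in 12 of 16 cholesterol enzymes with a sequence (75%) and in 35.7% of all 27305 promoters. The sterol element searched as TCACNCCAC was in 0 of the 16 and in 1.15% of all promoters, which says only that these letters are not in this window. The 2 enzymes shown are HMGCS1 (chr5:43313363-43313662, minus strand) and MVD, mevalonate diphosphate decarboxylase (chr16:88663042-88663341, minus strand), with CCAAT or its complement ATTGG in capitals, first at 155 and 159 bases before the start, printed 5′ to 3′ on the strand of the gene. A match is a description of letters and not a bound site.
HMGCS1: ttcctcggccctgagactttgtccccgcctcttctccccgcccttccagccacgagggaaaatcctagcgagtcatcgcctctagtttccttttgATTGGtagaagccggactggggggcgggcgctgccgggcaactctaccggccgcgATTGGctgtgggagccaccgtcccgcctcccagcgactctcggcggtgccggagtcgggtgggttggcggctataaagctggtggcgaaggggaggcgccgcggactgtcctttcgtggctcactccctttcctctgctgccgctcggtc
MVD: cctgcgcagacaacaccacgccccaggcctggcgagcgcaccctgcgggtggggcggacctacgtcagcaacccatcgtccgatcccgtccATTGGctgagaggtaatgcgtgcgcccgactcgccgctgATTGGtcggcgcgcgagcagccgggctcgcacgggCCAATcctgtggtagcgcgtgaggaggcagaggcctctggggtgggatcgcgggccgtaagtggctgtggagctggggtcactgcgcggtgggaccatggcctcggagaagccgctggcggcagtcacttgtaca

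Uptake of cholesterol moved with synthesis, though fewer members of that list did. Of 14 genes of sterol uptake and SREBP control 7 were higher in DAC and 3 lower, with a median of 0.42. INSIG1, which holds SCAP in the endoplasmic reticulum, stood at 21.9, 22.8 and 27.1 CPM in OSI and 137, 134 and 156 CPM in DAC. The groups did not overlap, and the difference was 5.94-fold (adjusted p = 3.29e-12). STARD4, a sterol carrier, rose from 1.08 ± 0.391 to 7.57 ± 0.480 CPM (SD, n = 3), and LPIN1, a phosphatidate phosphatase, was 5.36-fold higher. SREBF2, which encodes SREBP2, stood at 253, 280.1 and 287 CPM in OSI and 409, 408 and 401 CPM in DAC, and the log2 fold change was 0.57 ± 0.068 (SE), adjusted p = 3.9e-06. SREBF1 was not called, with 182 ± 2.40 CPM in OSI and 200.4 ± 6.30 CPM in DAC (adjusted p = 0.0726). The 3 lower members were MYLIP, a ubiquitin ligase (-0.48), SCAP (-0.35) and the protease MBTPS1 (-0.32), of which 1 was called in the fit of all 12 libraries.

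Genes of sterol export went the other way. Of 10 tested members of that list, which holds targets of the oxysterol receptor LXR, 7 were lower in DAC and 2 higher, with a median of -0.42. ABCG1, a cholesterol exporter, stood at 22.9, 22.6 and 26.8 CPM in OSI and 6.73, 6.77 and 9.37 CPM in DAC, and the log2 fold change was -1.66 ± 0.12 (SE), adjusted p = 1.86e-08. APOE, an apolipoprotein, was 2.27-fold lower in DAC and ABCA1, another exporter, 1.33-fold lower. NPC1, which moves cholesterol out of lysosomes, was higher (0.59), while its partner NPC2 was lower (-0.49). Unlike for cholesterol synthesis, DAC lay near Control here by the median of the list. That median log2 ratio to Control was 0.35 for OSI, -0.05 for DAC and 0.95 for DAC+OSI, untested. Summed over the list, the level averaged 1415 CPM in OSI, 1087 CPM in DAC and 792.8 CPM in Control, with DAC in between.

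Fatty acid synthesis followed cholesterol synthesis. Of 15 tested members 13 were higher in DAC and 2 lower, with a median of 0.95. SCD, the desaturase that makes oleate, stood at 1697, 1802 and 1943 CPM in OSI and 9704, 8639.5 and 9469 CPM in DAC and was the most abundant of these messages in both groups. ACSS2, which makes acetyl-CoA from acetate, stood at 102, 93.3 and 96.03 CPM in OSI and 834, 767 and 964 CPM in DAC, and ACLY, which makes it from citrate, was 4.62-fold higher in DAC. FASN, the fatty acid synthase, was 3.7-fold higher (adjusted p = 2.72e-11). The 2 lower members were ACACB, the carboxylase at the mitochondrial surface (-1.32), and SCD5, a second desaturase (-0.81). In Control SCD stood at 1512, 1336 and 1565 CPM, and the list's median log2 ratio to Control was 0.15 for OSI and 1.32 for DAC, untested.

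Messages that report ERK activity were higher in DAC than in OSI. Of 25 members 20 were higher in DAC, 1 lower and 4 not called, with a median log2 fold change of 0.55. DUSP6, the phosphatase that inactivates ERK, stood at 69.6, 56.8 and 56.2 CPM in OSI and 207, 213 and 213 CPM in DAC, so the groups lay far apart (log2 fold change 1.79 ± 0.081 (SE), adjusted p = 6.45e-11). EPHA4, an ephrin receptor, was 4.12-fold higher, HMGA2, an architectural chromatin protein, 3.66-fold, and LIF, a cytokine of the interleukin 6 family, 2.92-fold. SPRY4, a Sprouty inhibitor, stood at 36.7, 40.2 and 38.5 CPM in OSI and 82.3, 78.1 and 71.4 CPM in DAC (2.01-fold, adjusted p = 1.36e-08). The cyclin CCND1 and the factor MYC differed less, at 1.43-fold and 1.6-fold. EGR1, SPRY2, EPHA2 and ETV1 were not called. SPRY1 was the lower member, with 3.24, 5.91 and 4.51 CPM in OSI and 3.12, 3.42 and 2.87 CPM in DAC and overlapping groups. Its call was lost without OSI 2, DAC 1 or DAC 3 and in the fit of all 12 libraries.

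For this list the DAC libraries lay near Control and the OSI libraries below it. DUSP6 stood at 227, 217 and 218 CPM in Control and at 96.2, 143 and 111 CPM in DAC+OSI. The list's median log2 ratio to Control was -1.0 for OSI, -0.20 for DAC and -0.93 for DAC+OSI, or -0.86 and -0.10 for OSI and DAC without Control 2. That library stands apart within its group, with mitochondrial ribosomal RNA at 10300 CPM against 23400 and 21400 CPM in Control 1 and 3. DAC+OSI 2 does too, with summed leukocyte markers at 78.89 CPM against 26.09 and 24.68 CPM in the other libraries of its group. The AP-1 letters TGANTCA were in 4 of 15 of these promoters (26.7%), in 7.76% of all and in 5.22% of those of genes tested.

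EGFR itself did not separate the compounds. It stood at 1188, 1438 and 1499 CPM in OSI and 1443, 1395 and 1228 CPM in DAC, groups that overlap (log2 fold change -0.02 ± 0.091 (SE), adjusted p = 0.869), and at 2441, 2419 and 2114 CPM in Control. The sign of this small value changed when single libraries were left out. Of 13 tested genes of the EGFR family and its ligands 6 were higher in DAC and 4 lower, with a median of 0.06. The ligand genes AREG, EREG and HBEGF were 2.17-fold, 2.14-fold and 1.67-fold higher in DAC, and the feedback inhibitor ERRFI1 2.15-fold. All 4 averaged less in both groups than in Control, where AREG averaged 22.7 ± 3.76 CPM against 6.54 ± 1.28 in OSI and 14.2 ± 1.52 in DAC (SD, n = 3). The receptors ERBB3 and ERBB2 were lower in DAC (-0.52 and -0.41). The number of lower members was 2 in the fit of all 12 libraries.

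Receptors known to bypass EGFR showed a mixed picture. Of 12 tested members 7 were lower in DAC and 3 higher, with a median of -0.41. FGFR3 stood at 43.5, 46.8 and 42.1 CPM in OSI and 24.1, 26.1 and 25.7 CPM in DAC and IGF1R at 57.1, 66.3 and 64.5 CPM in OSI and 47.9, 42.1 and 44.3 CPM in DAC, both lower in DAC in every library, by 1.74-fold and 1.4-fold. In the fit of all 12 libraries FGFR3 lost its call (adjusted p = 0.0668), and 3 members of the list were lower and 1 higher. AXL was 1.26-fold lower in DAC and its ligand GAS6 1.56-fold higher. MET did not differ beyond the spread, with 186, 185 and 188 CPM in OSI and 197, 183 and 181 CPM in DAC (adjusted p = 0.964).

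Adhesion genes of laminin, tenascin and integrins were among the groups higher in DAC. Of 18 tested members 12 were higher and 4 lower, with a median of 0.72. ITGA6, a laminin receptor subunit, stood at 70.98, 71.00 and 65.4 CPM in OSI and 238, 256 and 224 CPM in DAC, with no overlap (3.46-fold, adjusted p = 1.73e-11). TNC, tenascin C, was 3.95-fold higher and ITGA2, a collagen receptor subunit, 2.5-fold. As for the ERK list, Control held the higher level of ITGA6, with 392, 286 and 349 CPM. MMP7, a matrix protease, went the other way at low level, with 1.04, 0.340 and 0.704 CPM in OSI and 0.0373, 0 and 0 CPM in DAC.

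**Figure D3:**
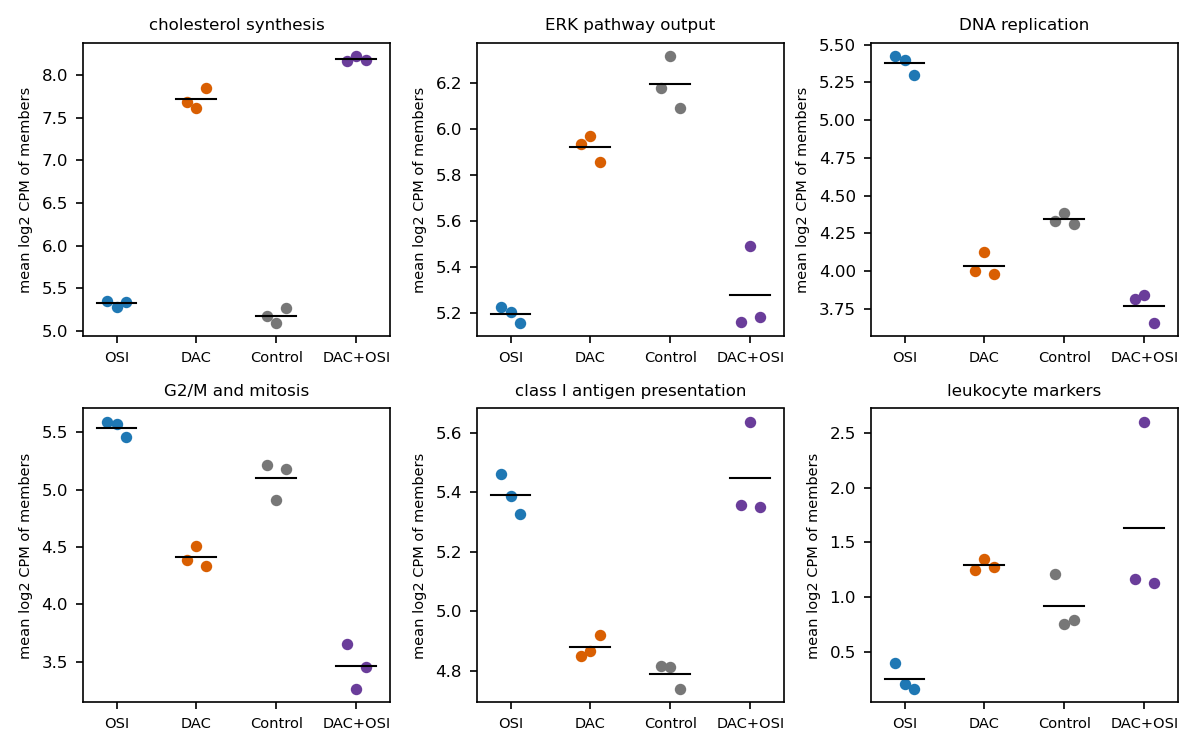
Mean log2 CPM over the tested members of 6 gene lists (vertical axis) in each library of the 4 groups, where points are libraries and lines the means of 3. The DAC points lie above the OSI points for cholesterol synthesis, ERK pathway output and leukocyte markers, and below them for DNA replication, mitosis and class I antigen presentation.

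Proliferation genes were lower in DAC, without exception in the replication list. All 38 tested members of DNA replication were lower in DAC, with log2 fold changes from -2.26 to -0.62 and a median of -1.31. TK1, thymidine kinase, stood at 167, 164 and 161 CPM in OSI and 32.03, 37.4 and 33.2 CPM in DAC, and the log2 fold change was -2.26 ± 0.072 (SE), adjusted p = 1.64e-12. MCM2 and MCM5, subunits of the replicative helicase, were 3.43-fold and 3.19-fold lower, and ORC1, a subunit of the origin recognition complex, 3.73-fold. PCNA, the sliding clamp, stood at 315, 279 and 254 CPM in OSI and 99.8, 109.7 and 98.00 CPM in DAC. In the G1/S list 14 of 21 members were lower in DAC and 4 higher, with a median of -0.91. E2F1, the factor that drives S-phase entry, stood at 69.6, 67.6 and 77.1 CPM in OSI and 14.6, 12.9 and 13.4 CPM in DAC, so no library of one group came near those of the other (5.24-fold, adjusted p = 2.5e-12). The cyclin gene CCND3 was 2.41-fold lower in DAC and CCNA2 2.22-fold. The 4 higher members were CCND2 (2.32, from 0.403 ± 0.188 CPM), CDKN1A, which encodes the inhibitor p21 (0.96), CDK6 (0.57) and E2F3 (0.41), of which 2 were called in the fit of all 12 libraries.

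Mitosis genes followed. Of 38 tested members 36 were lower in DAC and 0 higher, with a median of -1.09. PLK1, the polo kinase, stood at 119, 119.7 and 120.2 CPM in OSI and 34.3, 37.7 and 31.4 CPM in DAC (log2 fold change -1.80 ± 0.073 (SE), adjusted p = 2.15e-11). MYBL2 and FOXM1, factors of the mitotic program, were 4.3-fold and 3.27-fold lower in DAC, and CDC20, which triggers anaphase, 3.3-fold. MKI67, the proliferation antigen, stood at 206, 229.7 and 256 CPM in OSI and 109, 113 and 87.6 CPM in DAC. CENPE, a kinetochore motor, was not called, with 17.1, 16.1 and 16.9 CPM in OSI and 15.99, 17.2 and 14.2 CPM in DAC, and NUSAP1 averaged only 0.330 CPM in OSI. In the repair and checkpoint list 22 of 26 members were lower in DAC and 2 higher, with a median of -0.81. RAD54L and EXO1, which act in homologous recombination, were 4.23-fold and 3.9-fold lower, and the 2 higher members were the checkpoint kinases ATM (0.66) and ATR (0.29), of which 1 was called in the fit of all 12 libraries and 1 after a correction for the GC content of genes.

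Set beside Control, the replication list stood high in OSI and the mitosis list lay on both sides. E2F1 averaged 11.5 ± 1.80 CPM in Control and TK1 65.3 ± 12.3 CPM, against 71.4 ± 5.01 and 164 ± 2.98 CPM in OSI (SD, n = 3). The median log2 ratio to Control was 1.01 in OSI and -0.30 in DAC for replication, and 0.44 in OSI and -0.72 in DAC for mitosis, where DAC+OSI stood at -1.78. The ratios were not tested and share the Control libraries. Messages measured in bulk cannot tell fewer cycling cells from less of a message in each cell.

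The promoters of these lists held different letters. The E2F letters TTTGGCGC or TTTCCCGC were in 17 of 34 replication promoters (50%), 5 of 17 of the G1/S list (29.4%) and 2 of 32 of the mitosis list (6.25%), against 2.31% of all. The letters TTTGAA of the CHR element were in 23 of 32 mitosis promoters (71.9%) and 1 of 34 replication promoters (2.94%), against 15.4% of all, and CCAAT was in 23 and 20 of these (71.9% and 58.8%). CCAAT and TTTGAA were added to the search after the sequences were seen. Genes at least 2-fold lower in DAC held the E2F letters in 49 of 837 promoters (5.85%), and genes at least 2-fold higher in 12 of 683 (1.76%). Among the 12736 promoters of genes tested, 3.4% held the E2F letters and 10.3% held TTTGAA. The examples were chosen among holders of the letters, and for E2F they are not strictly the holders of smallest adjusted p. TK1, MCM2 and ORC1 are not among the holders of the E2F letters. LIG1, the ligase of lagging strand synthesis (chr19:48170295-48170594, minus strand), and PCNA (chr20:5126573-5126872, minus strand) show the E2F letters in capitals at 114 and 59 bases before the start, the latter as the complement. PLK1 (chr16:23678639-23678938, plus strand) and CDC20 (chr1:43358731-43359030, plus strand) show TTTGAA or TTCAAA in capitals, first at 29 and 178 bases before the start.
LIG1: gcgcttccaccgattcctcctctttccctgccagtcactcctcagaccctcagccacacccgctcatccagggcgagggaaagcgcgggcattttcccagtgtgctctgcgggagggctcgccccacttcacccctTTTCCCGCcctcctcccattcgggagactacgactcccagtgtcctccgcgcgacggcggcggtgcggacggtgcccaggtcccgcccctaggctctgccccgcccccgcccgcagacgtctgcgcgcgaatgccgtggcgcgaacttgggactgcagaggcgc
PCNA: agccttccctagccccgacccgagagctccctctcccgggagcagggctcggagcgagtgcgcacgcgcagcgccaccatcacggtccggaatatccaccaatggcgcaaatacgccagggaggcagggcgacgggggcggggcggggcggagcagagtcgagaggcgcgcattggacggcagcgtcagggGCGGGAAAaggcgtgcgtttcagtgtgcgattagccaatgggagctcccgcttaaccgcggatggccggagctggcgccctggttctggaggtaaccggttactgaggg
PLK1: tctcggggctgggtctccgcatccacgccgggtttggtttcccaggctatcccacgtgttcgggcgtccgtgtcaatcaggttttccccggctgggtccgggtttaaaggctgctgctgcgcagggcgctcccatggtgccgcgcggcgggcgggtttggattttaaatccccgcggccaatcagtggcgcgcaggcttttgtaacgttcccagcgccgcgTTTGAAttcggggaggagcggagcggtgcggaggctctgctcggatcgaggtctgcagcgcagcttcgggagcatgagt
CDC20: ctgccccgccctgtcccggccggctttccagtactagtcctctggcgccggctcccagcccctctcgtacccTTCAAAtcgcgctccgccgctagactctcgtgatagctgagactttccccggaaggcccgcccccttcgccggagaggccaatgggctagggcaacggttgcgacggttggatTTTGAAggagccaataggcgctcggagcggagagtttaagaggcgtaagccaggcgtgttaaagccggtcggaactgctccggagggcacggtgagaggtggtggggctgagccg

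LIG1 stood at 60.7, 65.6 and 59.7 CPM in OSI and 20.9, 23.2 and 21.3 CPM in DAC and CDC20 at 123, 113 and 107 CPM in OSI and 34.3, 36.4 and 32.96 CPM in DAC, with the OSI libraries above the DAC libraries in both. Of 12 tested BCL2 family members 2 were higher in DAC and 3 lower, and the higher ones were the survival genes BCL2L2 (0.39) and MCL1, with 193, 190.3 and 185 CPM in OSI and 280.4, 291 and 289.8 CPM in DAC. BCL2L11, which encodes BIM, was not called (20.4 ± 0.896 and 21.7 ± 1.40 CPM, SD, n = 3). The list gave 5 higher and 2 lower after the GC correction, and 2 higher and 0 lower in the fit of all 12 libraries.

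**Figure D4:**
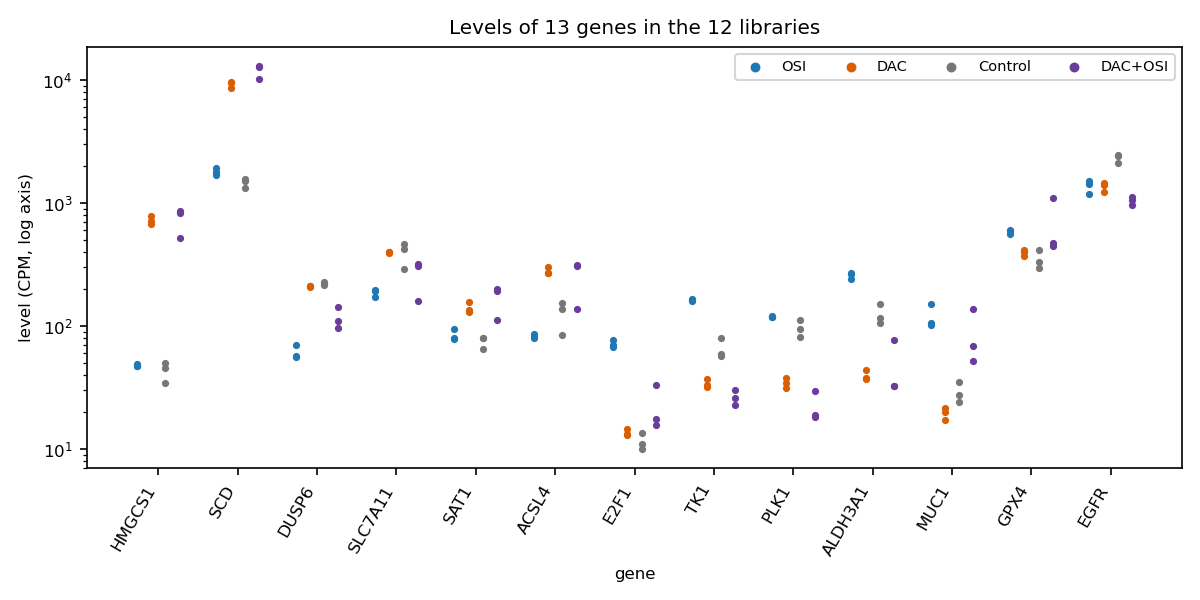
Level in CPM (log axis) of 13 genes named in the text in each of the 12 libraries, coloured by group. DAC lies above OSI for the genes from HMGCS1 to ACSL4 and below it from E2F1 to GPX4, while the EGFR points of both groups overlap.

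The polyamine and ferroptosis genes around which the series was built had list medians nearer to 0 than cholesterol synthesis or replication. Some ferroptosis members still differed several-fold. SAT1 stood at 94.9, 77.9 and 80.8 CPM in OSI and 129.6, 135 and 156 CPM in DAC, with every DAC library above every OSI library (log2 fold change 0.73 ± 0.086 (SE), adjusted p = 3.15e-06). Control held 80.6, 64.6 and 80.2 CPM. SMOX, which oxidises spermine, stood at 50.5, 51.5 and 49.4 CPM in OSI and 57.5, 62.9 and 57.4 CPM in DAC (1.17-fold higher in DAC, adjusted p = 0.00854), and both groups lay below Control, at 110.1, 171 and 117 CPM. PAOX, the oxidase that acts after SAT1, averaged only 0.126 ± 0.120 and 0.397 ± 0.0600 CPM. ODC1, the first enzyme of synthesis, was 1.25-fold higher in DAC. In the polyamine list 11 of 17 members were higher and 0 lower, with a median of 0.24, but the number higher was 7 without OSI 2, DAC 2 or DAC 3, and 3 when all 12 libraries shared one estimate of the spread. In that fit the adjusted p of SMOX was 0.429 and that of SAT1 was 0.0216. SMOX also lost its call without DAC 2 (adjusted p = 0.0594).

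Drivers of ferroptosis were higher in DAC more often than lower. Of 29 tested members 18 were higher and 8 lower, with a median of 0.30. ACSL4, which loads arachidonate and similar fatty acids into lipids, stood at 82.8, 80.8 and 86.5 CPM in OSI and 270.2, 268 and 304 CPM in DAC (log2 fold change 1.75 ± 0.071 (SE), adjusted p = 1.94e-11), against 155, 84.1 and 138 CPM in Control. FADS2 and FADS1, desaturases of polyunsaturated fatty acids that also stand on the fatty acid list, were 4.03-fold and 2.47-fold higher, and ACSL1 3.17-fold. HMOX1, which releases iron from heme, stood at 14.8, 16.9 and 15.2 CPM in OSI and 41.00, 47.5 and 44.6 CPM in DAC. ALOX15 (-0.70) and KEAP1 (-0.58) were among the lower members. With all 12 libraries fitted 10 members were higher and 4 lower.

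Suppressors of ferroptosis split evenly, with 9 of 29 higher in DAC, 8 lower and a median of -0.03. GPX4, the peroxidase that removes lipid peroxides, stood at 599.9, 557 and 595 CPM in OSI and 402, 372 and 419 CPM in DAC, 1.47-fold lower in DAC (adjusted p = 7.17e-06), while Control stood at 296, 412 and 332 CPM. In the fit of all 12 libraries the adjusted p of GPX4 was 0.172. SLC7A11, the cystine importer, stood at 174, 196 and 191 CPM in OSI and 401, 392 and 399 CPM in DAC, 2.13-fold higher in DAC (adjusted p = 2.47e-09) and near the 463, 293 and 420.1 CPM of Control. SCD and the sterol reductase DHCR7 are on this list too and were 5.11-fold and 5.5-fold higher. FTH1, the ferritin heavy chain, was not called (5994 ± 483 and 5437 ± 562 CPM, SD, n = 3; adjusted p = 0.215). Of 22 tested iron genes 12 were higher in DAC and 4 lower, with a median of 0.24. NCOA4, the receptor that sends ferritin to lysosomes, was 1.51-fold higher and FTL, the ferritin light chain, 1.36-fold lower. TFRC, the transferrin receptor, was 1.23-fold higher (adjusted p = 0.00242), a call lost in the fit of all 12 libraries (adjusted p = 0.156) and after the GC correction (0.187). Lower suppressors numbered 3 and higher iron genes 6 in the fit of all 12 libraries. After the GC correction 8 suppressors were higher and 9 lower.

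Stress response genes were mostly higher in DAC than in OSI. Of 34 targets of ATF4, the factor of the integrated stress response, 19 were higher and 6 lower, with a median of 0.28. TRIB3, a pseudokinase, stood at 162, 162 and 149 CPM in OSI and 348, 367 and 377 CPM in DAC and CEBPB, a partner factor, at 33.9, 33.1 and 34.9 CPM in OSI and 79.1, 74.9 and 74.2 CPM in DAC, 2.31-fold and 2.24-fold apart. ASNS, asparagine synthetase, went the other way, with 40.9, 44.8 and 48.8 CPM in OSI and 35.6, 27.99 and 18.3 CPM in DAC. TRIB3 stood at 335, 457 and 320.2 CPM in Control, and the median log2 ratio of the list to Control was -0.80 in OSI and -0.51 in DAC, untested. The letters TGATGNAA were in 8 of 28 of these promoters (28.6%), in 3.67% of all and in 1.81% of those of genes tested. Of 22 genes of endoplasmic reticulum chaperones and the XBP1 branch 17 were higher in DAC and 0 lower, with a median of 0.43. HSPA5, the chaperone BiP, stood at 358, 330.1 and 344 CPM in OSI and 627, 683 and 710.2 CPM in DAC (1.96-fold). The chaperone list's median log2 ratio to Control was -0.26 in OSI and 0.11 in DAC, untested. In the fit of all 12 libraries the counts of higher members were 11 for ATF4 targets and 7 for the chaperones. Heat shock genes were mixed, with 6 of 18 higher, 5 lower and a median of 0.07. Lower heat shock genes numbered 2 after the GC correction, and the fit of all 12 libraries gave 3 higher and 1 lower.

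Against OSI, lysosomal genes were lower in DAC more often than higher, while autophagy genes were higher more often than lower. Of 39 lysosomal members 22 were lower and 5 higher, with a median of -0.25. CTSB, a cysteine cathepsin, stood at 245, 224 and 235 CPM in OSI and 102, 97.3 and 98.8 CPM in DAC (2.37-fold lower in DAC), CTSF was 2.73-fold lower and CTSH 2.13-fold. LIPA, the acid lipase that frees cholesterol from its esters, was 2.29-fold higher, with 57.7, 46.96 and 47.8 CPM in OSI and 114, 108 and 126 CPM in DAC. The number of lower members was 10 in the fit of all 12 libraries. The lysosomal list's median log2 ratio to Control was 0.41 in OSI, 0.23 in DAC and 0.69 in DAC+OSI, untested. The letters TCACGTGA, bound by MiT/TFE factors, were in 5 of 26 of these promoters (19.2%), in 1.04% of all and in 1.71% of those of genes tested. Of 15 genes of the vacuolar proton pump 4 were higher and 4 lower, and 2 and 2 in the fit of all 12 libraries. Of 24 autophagy and MiT/TFE genes 12 were higher and 6 lower, with a median of 0.28. SQSTM1, which encodes the receptor p62, stood at 371, 334 and 333 CPM in OSI and 575, 553 and 594 CPM in DAC (1.66-fold higher), MAP1LC3B, which encodes LC3, was 1.68-fold higher, and GPNMB, a membrane glycoprotein, was 3.04-fold lower.

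Genes of antigen presentation were lower in DAC. Of 15 class I members 12 were lower and 1 higher, with a median of -0.60. B2M, the light chain, stood at 471, 424 and 424 CPM in OSI and 282, 283 and 285 CPM in DAC (1.55-fold lower in DAC, adjusted p = 1.09e-06), and the immunoproteasome subunit PSMB9 was 2.58-fold lower. Heavy chain genes share reads with close relatives and are uncertain one by one. Control stood near DAC here, with B2M at 253, 199 and 248 CPM, and the list's median log2 ratio to Control was 0.60 in OSI and 0.06 in DAC, untested. Of 24 interferon-stimulated genes 10 were lower and 2 higher, with a median of -0.25. OAS3, an antiviral sensor, was 2.44-fold lower, and MX1 stood at 20.3, 9.71 and 8.14 CPM in OSI and 3.75, 3.87 and 6.003 CPM in DAC, with OSI 1 far above the others of its group. Over the whole list OSI 1 stood apart too, with a mean log2 CPM of 3.285 against 2.649 and 2.377 in OSI 2 and 3, the last below all 3 DAC libraries (2.397, 2.446 and 2.751). Without OSI 1 the higher members numbered 5, and in the fit of all 12 libraries 6 were lower and 1 higher. ISG20, an exonuclease, was 3.57-fold higher. Targets of NF-kB were split 5 and 5 of 19, and 3 and 3 in the fit of all 12 libraries. Among targets of YAP and TEAD 16 of 21 were lower and 2 higher, with a median of -0.64 (10 and 1 in that fit). The genes IGFBP3 and CCN2 of this list were 3.35-fold and 3.04-fold lower.

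The largest single differences lay mostly outside the lists above. When genes with overlapping groups, or averaging under 5 CPM in both, were set aside, KRT4, a keratin of stratified mucosa, fell furthest, with 27.8, 20.02 and 26.4 CPM in OSI and 0.261, 0.260 and 0.337 CPM in DAC (86-fold lower in DAC, adjusted p = 4.74e-13). ALPP, the placental alkaline phosphatase, stood at 259.5, 228 and 275 CPM in OSI and 5.97, 4.20 and 5.47 CPM in DAC (48.9-fold lower) and its near copy ALPG at 5.98, 5.36 and 6.03 CPM in OSI and 0.280, 0.122 and 0.238 CPM in DAC. The counting may divide reads between the 2 copies, so each is uncertain. SLC30A2, a zinc transporter, was 30.1-fold lower in DAC, PTGS1, which encodes cyclooxygenase 1, 10.2-fold, and TMPRSS2, a surface protease, 8-fold. The kinase gene PNCK, the phosphatase gene DUSP15, the placental peptide gene INSL4 and the ankyrin gene ANK1 were lower by 15.7-fold, 12.2-fold, 8.93-fold and 7.91-fold. SLC30A2 and PNCK stood in DAC+OSI at 8.89, 12.8 and 9.004 CPM and 7.39, 9.98 and 7.23 CPM, near their levels in OSI, while ALPP in DAC+OSI stood at 35.5, 36.2 and 32.7 CPM. In Control KRT4 averaged 1.40 CPM, ALPP 8.91 CPM, SLC30A2 0.686 CPM and PNCK 0.788 CPM, nearer to DAC than to OSI. ALPG, DUSP15, PTGS1, INSL4, TMPRSS2 and ANK1 also averaged nearer to DAC than to OSI in Control. These levels were not tested. TCEA1P2, a pseudogene with a close parent, varied between OSI libraries, at 7.81, 3.02 and 16.5 CPM, and averaged 7.99 CPM in Control, nearer to OSI.

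Among the largest rises, 5 of 12 were the cholesterol enzymes MSMO1, HMGCS1, SQLE, ACAT2 and IDI1, and ACSS2 was another lipid gene. MYH16, a transcribed myosin pseudogene, led them with 5.73, 6.86 and 6.60 CPM in OSI and 127, 126 and 129 CPM in DAC (19.8-fold, adjusted p = 1.12e-14) and 54.8, 55.8 and 54.1 CPM in Control. HSD3B1, an enzyme of steroid hormone synthesis, stood at 0.445, 0.680 and 0.396 CPM in OSI and 9.57, 8.70 and 10.4 CPM in DAC, and IGFN1, a protein with immunoglobulin and fibronectin domains, at 55.3, 72.8 and 62.99 CPM in OSI and 726, 669.7 and 552 CPM in DAC. IGFN1 was high in Control too (507, 589 and 501 CPM), while HSD3B1 was at 1.53, 1.76 and 1.82 CPM there. SPRR1A, a precursor of the cornified envelope, stood at 2.79, 2.83 and 4.22 CPM in OSI and 48.2, 42.3 and 39.8 CPM in DAC, and its relatives share sequence with it. LBHD1 and the pseudogene ALOXE3P1 complete the set, at 8.8-fold and 14.6-fold.

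Keratin and envelope genes of squamous type moved both ways. Of 19 tested members 9 were higher in DAC and 4 lower, with a median of 0.14. SPRR1B, SPRR3 and KRT6B were 5.42-fold, 4.09-fold and 5.37-fold higher, with means of 19.3, 13.6 and 4.15 CPM in DAC. KRT4, 86-fold lower in DAC as given above, is on this list too. Of 20 epithelial genes 10 were lower and 5 higher, with a median of -0.07, and MUC1, a mucin, stood at 102, 106 and 150 CPM in OSI and 20.1, 21.5 and 17.1 CPM in DAC (6.1-fold lower in DAC). The excess of lower epithelial genes turned after the GC correction, with 4 lower and 6 higher. All 12 libraries fitted together gave 2 lower and 1 higher, and the higher ones numbered 2 without OSI 2 and 3 without DAC 3. Of 19 mesenchymal genes 8 were lower and 5 higher, with a median of -0.13, and 3 were lower in the fit of all 12 libraries. ZEB1, a repressor of epithelial genes, was 5.06-fold higher from a mean of 1.04 ± 0.206 CPM, and VIM, vimentin, 1.58-fold lower.

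Genes that process foreign compounds and aldehydes were lower in DAC. Of 24 tested members 16 were lower and 4 higher, with a median of -0.37. ALDH3A1 stood at 270.2, 264 and 243 CPM in OSI and 37.2, 43.7 and 37.9 CPM in DAC (6.55-fold lower in DAC, adjusted p = 5.83e-13) and at 106, 151 and 116 CPM in Control, so OSI lay above Control and DAC below it. ALDH1A1, which oxidises retinal, and ALDH3B1 were 8.71-fold and 2.68-fold lower, and the cytochrome CYP2S1 2.45-fold. ABCB1, the efflux pump P-glycoprotein, was low and not called (0.284 and 0.371 CPM). Targets of NRF2 were 13 of 29 lower and 9 higher, with a median of -0.14, led by EPHX1, an epoxide hydrolase (2.4-fold lower). Of the NRF2 targets 4 were lower in the fit of all 12 libraries.

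Energy metabolism differed most in the messages of the mitochondrial genome. Genes of that genome took 15.63%, 14.33% and 18.56% of the counts in OSI and 12.52%, 12.32% and 10.39% in DAC, so the groups did not overlap. The difference of means was -4.43 percentage points (16.17 ± 2.17% and 11.74 ± 1.17%, SD, n = 3), with a two-sided exact permutation p of 0.1, the smallest that 3 against 3 allows. Of the 13 protein-coding messages 10 were lower in DAC and 1 higher, with a median of -0.69. MT-CYB, a subunit of complex III, was 1.9-fold lower, while MT-ATP8, which overlaps MT-ATP6 and cannot be fully told apart from it, was 1.83-fold higher. Of the 2 mitochondrial ribosomal RNAs 1 was higher in DAC and 0 lower, and with groups that overlap they summed to 20200, 17300 and 24400 CPM in OSI and 27800, 25400 and 22400 CPM in DAC. Of 36 nuclear respiratory subunits 10 were lower and 4 higher (median -0.02), and of 36 ribosomal proteins 8 were lower and 6 higher (median -0.04). Ribosomal counts were unstable: the higher ones numbered 1 without OSI 3 or DAC 3 and 2 without OSI 2 or DAC 2, and the lower ones 5 without any 1 library other than OSI 3. The GC correction gave 3 lower and 6 higher, which turned the balance. In the fit of all 12 libraries 1 nuclear respiratory subunit, 1 ribosomal protein and 6 mitochondrial messages were lower, and 0 of any of them higher. Glycolysis and hypoxia genes were 13 of 29 lower and 8 higher, with a median of -0.06, and their members diverged, with PFKFB3, an activator of glycolysis, 2.27-fold lower and the kinase gene HK2 2.13-fold higher. The balance of this list turned, with 8 lower and 10 higher after the GC correction and 4 lower and 6 higher in the fit of all 12 libraries.

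**Figure D5:**
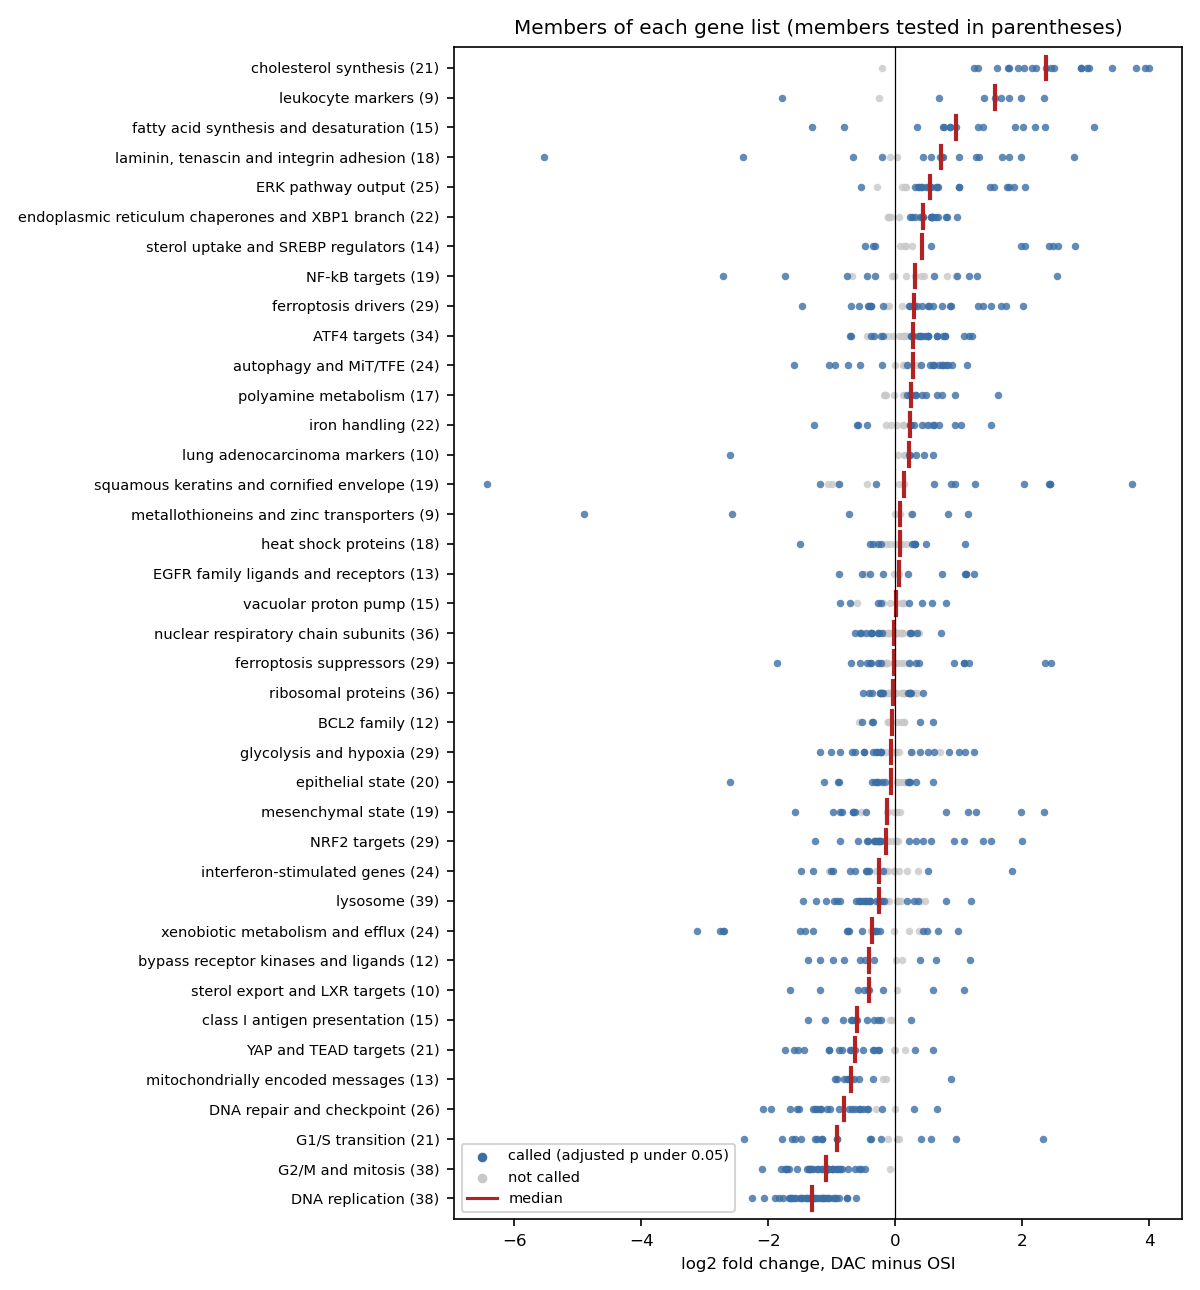
Log2 fold change (DAC minus OSI, horizontal axis) of every tested member of the gene lists with at least 5 tested members that are described here, with called members in blue, others in grey and the list median as a red bar. Lists are ordered by median, from cholesterol synthesis at 2.38 down to DNA replication at -1.31, and most others lie within 1 log2 unit of 0.

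The comparison has limits that touch all lists. In the fit of all 12 libraries 47 of the 88 counts computed for all genes and the lists moved by more than 1.5 times. With Control 2 and DAC+OSI 2 left out of that fit, 88 of the 88 counts stayed within 1.5 times. All 164 named genes then kept their direction and side of the threshold. Across 19275 genes, which are not independent, the log2 fold change had a Spearman rho of -0.30 with the GC content of the gene, so genes of low GC tended to be higher in DAC. A correction for that trend, added after it was seen, called 20 cholesterol enzymes higher and 38 replication genes and 37 mitosis genes lower. It made 8938 calls, of which 7581 were among the 9887 genes called without it. Of the genes called without the correction 257 changed sign. It moved 9 of the 88 counts by more than 1.5 times, and the lists whose balance it turned are named with their counts above. Further, a single compound at a single, unstated dose stands on each side, so a difference in dose or time cannot be told apart from one between the compounds.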

How the data were processed

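Messenger RNA was sequenced from PC9-OR cells after poly(A) selection, random priming and PCR, per the labels' protocols, which do not say whether strand was kept. Reads of overlapping or antisense genes therefore cannot be told apart. The deposited table holds raw counts of reads per gene, and the authors used CASAVA, HISAT2 and featureCounts, per the submitters' processing notes, with versions, settings and genome build not given in the sources used here. Of 39266 genes 39178 had a symbol in a table of names, and 37919 had a type, length and GC content in GENCODE 29. No 2 columns were identical.

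Counts of the 6 OSI and DAC libraries were filtered with filterByExpr and scaled by trimmed mean of M values (TMM). They were fitted with edgeR 4.0.16 (glmQLFit, glmQLFTest) in R 4.3.3, and DESeq2 1.42.0 and limma 3.58.1 served the alternatives. The standard error is the log2 fold change divided by the root of F. Levels are TMM-scaled CPM. Control and DAC+OSI were put on the same scale against the same reference library. On simulated counts the fit recovered 52.2%, 83.6% and 95.5% of 67 genes each changed 1.5-fold, 2-fold and 4-fold among 19176, with 11 false calls.

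Members, lists and tests were chosen with earlier results of these data known, and lists are described by counts and medians without a test. Genes were named by rule: the 12 largest changes each way, the 4 most firmly called members (fewer where fewer were called) of each list with enough of its tested members called in 1 direction (1 in 3), and 16 genes of interest. Members named beyond these were chosen after their values were seen. Motifs were searched in RefSeq promoters of GRCh38.p14, which matched 628 of 827 tested list genes. The rule for printing promoters by smallest adjusted p was set aside for the E2F and CHR examples, which were picked among holders of the letters. Genes on chromosome 8 were left out of all printed promoters. SQLE, on that chromosome, ranked before MVD by adjusted p. Some members that count in the lists are not reported one by one here.

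The alternatives tried were scaling by upper quartile or by relative log expression, no filter, DESeq2, limma-voom, a fit of all 12 libraries, a fit of 10 without Control 2 and DAC+OSI 2, a replicate block, removal of mitochondrial genes, leaving out each library, and GC offsets, the last added after seeing the data.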

Additional observations from a re-analysis of the deposited data

How the results depend on the processing

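The numbers of genes called higher or lower stayed within 1.5 times of those reported, except when all 12 libraries shared one estimate of the spread, where 2117 genes were higher in DAC and 2194 lower, and 4236 of these 4311 calls were also called in the 6 libraries. The cause was not tested. The fit without Control 2 and DAC+OSI 2 gave 5221 and 5111, DESeq2 gave 4620 and 4605, and the GC correction 4293 and 4645. Of the 8938 calls after the GC correction 7581 were also made without it. Leaving out single libraries gave 4280 to 4928 higher and 4350 to 4843 lower. With the replicate number as a replicate block 4663 genes were higher and 4644 lower, and ribosomal proteins gave 3 and 5. Same-numbered libraries deviated from their group means with correlations of -0.0662, 0.0396 and -0.0117. These small values cannot show whether the numbers pair the libraries. No named gene lost or gained its call under the block. The mitochondrial share kept its direction in all 7 alternatives.

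Of 2620 values of named genes under alternatives 2586 kept direction and side of the threshold. The 31 that lost their call included 23 in the fit of all 12 libraries and 2 under GC offsets, HSPH1 and TFRC. The other 6 came from leaving out single libraries and were those of SMOX, of MT2A (without OSI 2 or DAC 1) and of KRT7 (without OSI 2, OSI 3 or DAC 3). EGFR, never called, changed sign in 3 fits that left out single libraries, within a range of -0.118 to 0.0408 over all alternatives, and stood at 0.00917 without OSI 2, 0.0408 without OSI 3 and 0.0405 without DAC 3. Of 1406 counts over lists and genes 1315 stayed within 1.5 times. The share called was 24.8% under 1 CPM.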

Other observations

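Some types of transcript outside the lists were called more often higher than lower. Apart from the T cell receptor segments, those named here were called less often in either direction than all genes (25.2% higher and 25.3% lower). Of 161 tested sense intronic transcripts 31 were higher in DAC (19.3%) and 7 lower (4.35%), with a median log2 fold change of 0.35, and their summed level was 151, 153 and 150 CPM in OSI and 188, 188 and 186 CPM in DAC. Of 215 loci still to be experimentally classified 34 were higher (15.8%) and 13 lower (6.05%). Constant segments of T cell receptor genes, 4 of 4 higher in DAC, summed to 14.5, 12.8 and 14.7 CPM in OSI and 35.6, 34.0 and 35.4 CPM in DAC, beside 42.4, 53.3 and 41.8 CPM in Control. Among processed pseudogenes 123 of 765 were higher (16.1%) and 68 lower (8.89%).

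Of 9 tested genes of metallothioneins and zinc transporters 3 were higher in DAC and 3 lower. SLC30A1, the zinc exporter of the plasma membrane, stood at 24.7, 24.3 and 24.1 CPM in OSI and 40.8, 43.2 and 45.8 CPM in DAC and MT2A, the most abundant metallothionein here, at 413, 362 and 424 CPM in OSI and 549, 458 and 435 CPM in DAC, a difference that lost its call without OSI 2 (adjusted p = 0.128) or without DAC 1 (0.138). With 0 counts in all 3 libraries of one group, 7 genes had 30 or more counts in DAC and 2 had 30 or more in OSI.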
